A study of Homo sapiens with 60 samples.

Results

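Samul-tang at 500 µg/mL was compared with the same formula at its lower doses, 100 and 20 µg/mL, by messenger RNA sequencing in HepG2 cells, a human liver carcinoma line. The comparison rested on 9 of the 60 libraries of the series, chosen by their extract and dose labels: 3 at 500 µg/mL, and 6 lower-dose libraries, with 3 at 100 and 3 at 20 µg/mL. Samul-tang is a herbal formula, given here as a water extract, whose herbs include Cnidii Rhizoma and Rehmanniae Radix Preparata. Cells were harvested after 24 h, and every group came from this 1 cell line. The same comparison of doses was made within Sagunja-tang, another formula, and within Cnidii Rhizoma and Rehmanniae Radix Preparata given as single herbs, with 3 libraries at 500, 3 at 100 and 3 at 20 µg/mL for each extract. A vehicle group of 3 libraries received dimethyl sulfoxide without extract, at 0.1% in the sample labels and 2% in the design text. Water extracts of Cinnamomi Cortex and Astragali Radix, at the same doses, were in the fit that sets the spread but were not compared. The labels leave unsaid whether replicates of a group were grown as separate cultures. The p-values therefore reflect the scatter between libraries of a group, estimated over all 57 libraries in the fit. That scatter could be technical.

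Liver cells sense several kinds of signal that these genes report on. Bone morphogenetic proteins (BMPs) act through SMAD transcription factors, which switch on the iron hormone hepcidin, encoded by HAMP, and the inhibitor of DNA binding genes ID1, ID2 and ID3. The aryl hydrocarbon receptor binds many plant compounds and switches on CYP1A1, a cytochrome P450, and NRF2 is the transcription factor of the antioxidant response. Metallothioneins are small zinc- and copper-binding proteins whose genes are switched on by the metal sensor MTF1, and sterol regulatory element binding proteins drive the genes of cholesterol and fatty acid synthesis.

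The 250 bases before the start of 5 called genes are printed from RefSeq on GRCh38.p14, each on the strand of its gene. Capitals mark matches, on either strand, to the core of the element that the respective factor is known to bind: GGCGCC for SMAD in HAMP, TGCNCNC for MTF1 in MT2A and MT1X, GCGTG for the aryl hydrocarbon receptor in CYP1A1 and TGACNNNGC for NRF2 in GCLM, the regulatory subunit of glutathione synthesis. HAMP (chr19:35282278-35282527, plus strand) held 1 match, MT2A (chr16:56608334-56608583, plus strand) 7, MT1X (chr16:56682220-56682469, plus strand) 4, CYP1A1 (chr15:74725529-74725778, minus strand) 1 and GCLM (chr1:93909431-93909680, minus strand) 1. Gene starts are those of RefSeq, so the HAMP and CYP1A1 windows overlap the gene spans of GENCODE 29 given further on, which are longer.
HAMP: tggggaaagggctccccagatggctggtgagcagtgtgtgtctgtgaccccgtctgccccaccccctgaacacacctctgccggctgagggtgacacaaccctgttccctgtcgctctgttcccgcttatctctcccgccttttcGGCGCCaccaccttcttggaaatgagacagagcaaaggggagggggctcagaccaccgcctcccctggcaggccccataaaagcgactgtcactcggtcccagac
MT2A: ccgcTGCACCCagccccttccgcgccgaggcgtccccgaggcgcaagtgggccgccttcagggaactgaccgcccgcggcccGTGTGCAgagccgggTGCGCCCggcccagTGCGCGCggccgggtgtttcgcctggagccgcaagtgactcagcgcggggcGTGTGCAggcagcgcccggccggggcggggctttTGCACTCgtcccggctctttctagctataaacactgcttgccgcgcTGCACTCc
MT1X: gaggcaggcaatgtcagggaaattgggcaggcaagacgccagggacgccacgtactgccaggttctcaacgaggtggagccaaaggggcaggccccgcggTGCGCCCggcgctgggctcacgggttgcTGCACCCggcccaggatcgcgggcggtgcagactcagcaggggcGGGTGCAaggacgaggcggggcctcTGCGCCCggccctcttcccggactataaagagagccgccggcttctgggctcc
CYP1A1: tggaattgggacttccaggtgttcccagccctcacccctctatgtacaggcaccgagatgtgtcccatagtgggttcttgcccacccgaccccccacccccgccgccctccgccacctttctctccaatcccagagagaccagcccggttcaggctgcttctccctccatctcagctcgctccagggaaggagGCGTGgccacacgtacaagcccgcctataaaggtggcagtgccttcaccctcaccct
GCLM: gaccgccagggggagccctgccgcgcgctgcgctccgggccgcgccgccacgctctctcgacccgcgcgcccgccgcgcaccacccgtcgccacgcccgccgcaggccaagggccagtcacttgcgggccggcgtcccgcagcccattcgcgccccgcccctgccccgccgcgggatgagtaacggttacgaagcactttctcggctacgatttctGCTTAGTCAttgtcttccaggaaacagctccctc

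Of 27305 windows of the same length before RefSeq genes, 16.1% held GGCGCC, 48.4% TGCNCNC, 31.9% GCGTG and 11% TGACNNNGC, and 5.74% held TGCNCNC at least 3 times. TGCNCNC on one strand can overlap GCGTG on the other. Windows were at hand for 2 of the 6 metallothioneins that fell, and both held the motif at least 3 times. Of 6 hepcidin and BMP-SMAD genes with a window, 1 held GGCGCC, and of 9 NRF2 genes with a window, 2 held TGACNNNGC, GCLM and TXNRD1. Among the risers linked to the aryl hydrocarbon receptor, 3 had a window, and that of CYP1A1 was the 1 with GCGTG. The others were NQO1 and UGT1A1, of which UGT1A1 was added from outside the list of the receptor's targets. The windows printed above were ones that held a match, while those of ID1, ID2, ID3 and NQO1 held none. Such matches describe the letters only.

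Samul-tang at 500 µg/mL raised CYP1A1 and genes of the antioxidant response, and lowered HAMP, the ID genes, the metallothioneins and genes of lipid synthesis. CYP1A1 was 3.77-fold higher than at the lower doses and HAMP 8.60-fold lower. Of 16167 genes tested with edgeR's quasi-likelihood test, 403 (2.49%) passed an adjusted p under 0.05, 167 of them higher (1.03%) and 236 lower (1.46%). Most changes were small, with a median size of 0.24 on the log2 scale among the 403, and 16 genes changed at least 2-fold. Only 5 of these 16 averaged at least 2 counts per 1000000 (CPM) over the 9 libraries: CYP1A1, ALDH3A1, HAMP, ID3 and ID1. All log2 fold changes below compare 500 µg/mL with the mean of both lower doses and are given ± SE.

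**Figure D1:**
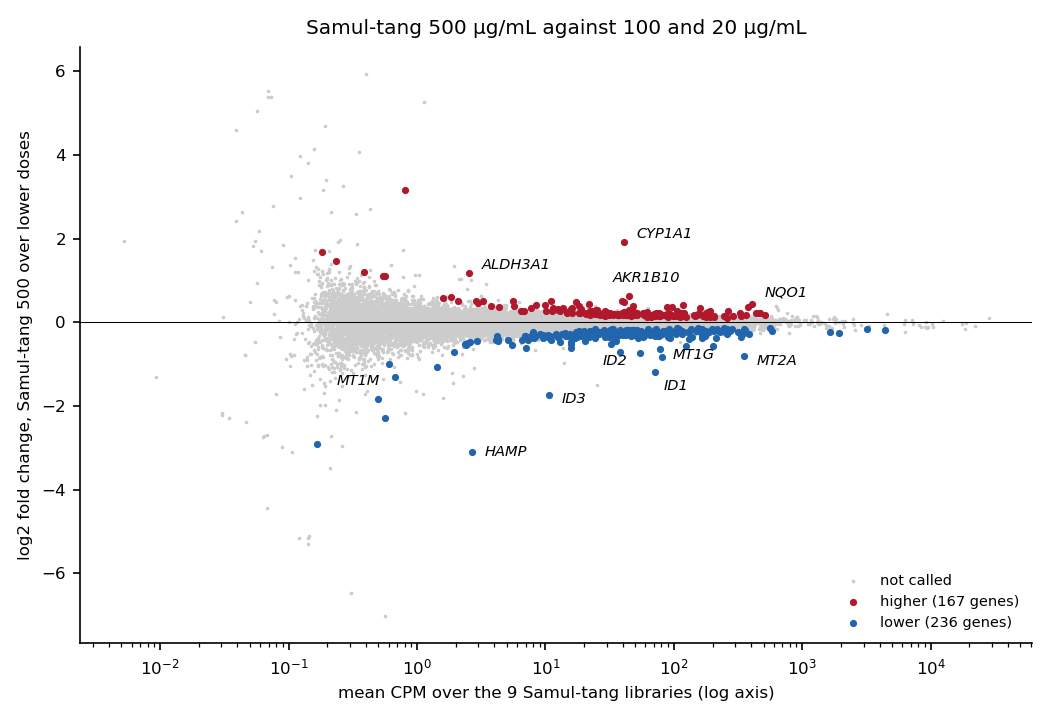
Each point is a gene, placed by its mean CPM over the 9 Samul-tang libraries (log axis) and its log2 fold change at 500 µg/mL over the lower doses. The 167 genes called higher are red and the 236 called lower are blue. CYP1A1 (1.91) and HAMP (-3.10) lie far outside the band in which most of the called genes sit.

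The 3 libraries at 500 µg/mL did not overlap the 6 lower-dose libraries in 280 of the 403 called genes (69.5%), and in 920 of all genes tested (5.69%). Of the 403, 384 are annotated as protein-coding. Calls depended on the libraries: 89 of the 403 were called without each of the 9 libraries in turn, and leaving out 1 library gave between 138 calls (without Samul-tang 500 replicate 3) and 973 (without Samul-tang 20 replicate 1). Fitted on the 9 Samul-tang libraries alone, 48 genes were called, and against 100 µg/mL alone 35. Among the 57 genes named by rule for this comparison, 34 were called without each of the 9 libraries in turn. With the 6 lower-dose libraries as 1 group in the fit, 12 of the 57 were called.

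Samul-tang 20 replicate 2 stood apart from its group. Its log2 levels differed from the mean of its group mates with an SD of 0.298 over 11966 genes, while the 17 other libraries of both formulas had SDs of 0.13 to 0.199. In it, 280 genes lay over 1.5-fold from the group mates, against 37 to 115 in the others. Without it, 173 genes were called (1.07%), 76 higher and 97 lower. Of these, 164 were among the 403, and none of the 403 changed sign.

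Depth and the summed liver markers overlapped between the doses. Total counts were 21199552 to 26893973 at 500 µg/mL and 23269565 to 33107829 at the lower doses, the last in Samul-tang 20 replicate 2, and mitochondrial transcripts took 14.9 to 16.7% of counts at 500 and 15.3 to 16.5% at the lower doses. The liver markers ALB, AFP and APOB averaged 8820, 12900 and 17600 CPM at 500, against 9460, 12500 and 17900 CPM at the lower doses. The summed level of 10 liver identity markers was 54364 to 58054 CPM at 500 and 52843 to 60472 CPM at the lower doses. Of these 10, TTR was called, lower at 500 (142 against 184 CPM), and 7 had negative log2 fold changes (list median -0.06). The median level of this list was -0.03, -0.03 and -0.08 on the log2 scale at 500, below the -0.01 to 0.07 of the lower doses. Of 20 markers of other liver cell types, 12 averaged under 1 CPM, and COL3A1, DCN, PTPRC and CD3E had no counts in all 9 libraries. The summed level of the 20 was 1840 to 2040 CPM at 500 and 1800 to 2060 CPM at the lower doses, and 0 of the 10 that could be tested were called.

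Among called genes of at least 2 CPM, hepcidin and BMP-SMAD genes held the deepest falls. On that list 7 of 10 tested members fell and 0 rose, with a median of -0.51 beside 0.00 over all genes tested. HAMP was at 0.466, 0.375 and 0.397 CPM in the libraries at 500 µg/mL, against 2.19 to 6.53 CPM (median 3.23) in the 6 lower-dose libraries. All 3 lay far below the lowest of the 6. In bulk RNA, fewer cells that carry a transcript and less of it per cell cannot be told apart. The log2 fold change of HAMP was -3.10 ± 0.233 (adjusted p = 5.95e-14, edgeR) and -2.98 ± 0.223 without Samul-tang 20 replicate 2. The values at 500 rest on estimated counts of 13, 8 and 9, so counting error is large beside the SD between the libraries. HAMP (ENSG00000105697) lies on chromosome 19 at 35280716 to 35285143, plus strand, in GENCODE 29.

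ID3, an inhibitor of basic helix-loop-helix transcription factors, had 3.69, 5.15 and 3.71 CPM at 500 µg/mL, against 11.3 to 19.5 CPM (median 12.8) at the lower doses, a change of -1.73 ± 0.117 (adjusted p = 2.79e-15, edgeR). ID1, of the same family, had 39.2, 38.9 and 37.9 CPM at 500 and 78.5 to 115 CPM (median 81.5) at the lower doses, a change of -1.18 ± 0.0847. For both genes the 3 libraries at 500 lay close together and well below the lowest of the 6. ID2 changed by -0.73 ± 0.0709, with 39.8, 39.6 and 33.5 CPM at 500 and 52.9 to 67 CPM (median 65.3) at the lower doses. SMAD7, a feedback inhibitor of the pathway, fell by 0.61 on the log2 scale (SE 0.0796), with 5.16, 5.72 and 4.81 CPM at 500 and 5.98 to 10.2 CPM (median 8.1) at the lower doses.

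The weaker members were SMAD6, another feedback inhibitor, at -0.41 ± 0.116, and TFR2, a transferrin receptor that takes part in iron sensing, at -0.20 ± 0.0466. Their calls ended without Samul-tang 20 replicate 2, at -0.34 (adjusted p = 0.196, edgeR) and -0.15 (adjusted p = 0.0694). The call of TFR2 also ended without Samul-tang 500 replicate 1 or 3, and that of SMAD6 without any 1 of the libraries at 100 or without 500 replicate 1 or 2. Members that did not pass the test were the ligand BMP4 (0.02 ± 0.0489), the decoy receptor BAMBI (-0.14 ± 0.0913) and SMAD9 (-0.11 ± 0.0584). HAMP, ID1, ID2, ID3 and SMAD7 were called without each library in turn, and also against 100 µg/mL alone. With the 6 lower-dose libraries as 1 group, SMAD7 was not called. The list of iron uptake, storage and export, which holds the transferrin receptor TFRC (0.07 ± 0.0466) and the exporter SLC40A1 (-0.11 ± 0.047), had 0 of 10 members called.

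**Figure D2:**
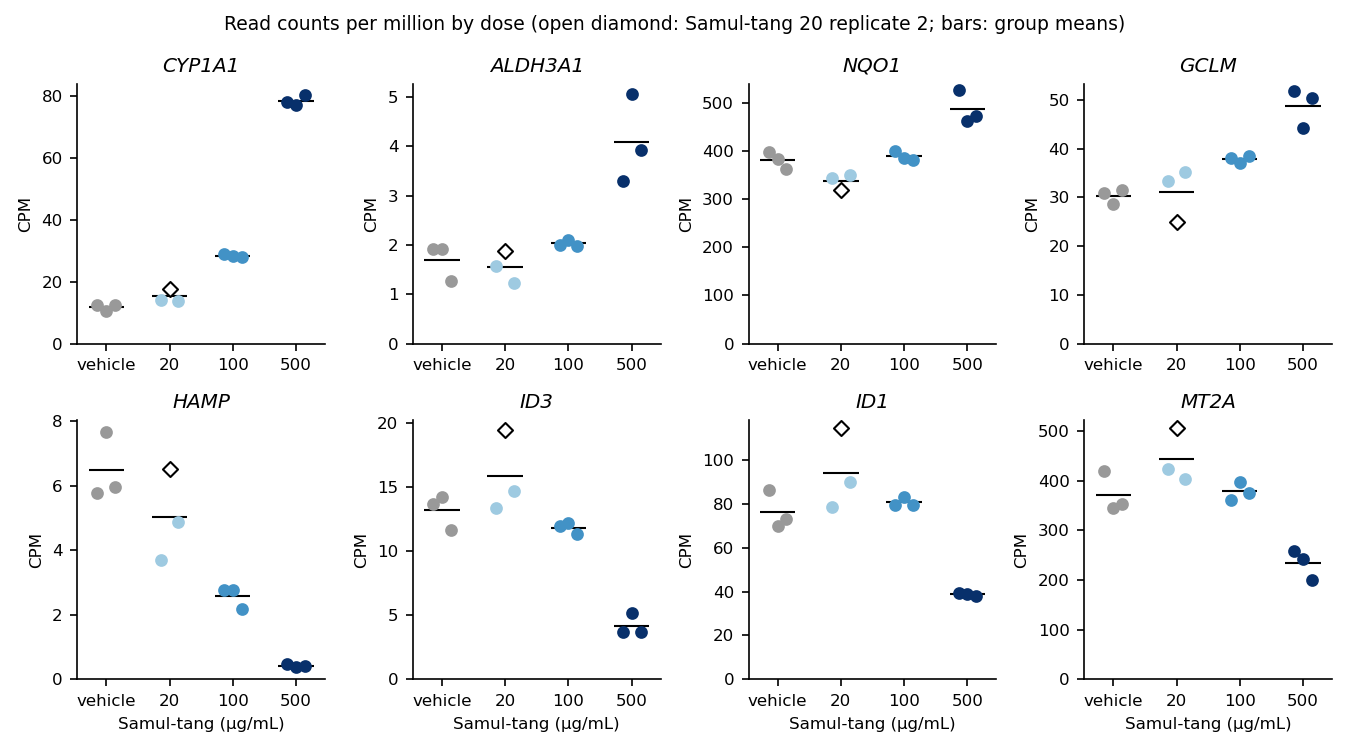
CPM of 8 genes in each library of vehicle and of Samul-tang at 20, 100 and 500 µg/mL, with a bar at each group mean and Samul-tang 20 replicate 2 as an open diamond. The libraries at 500 lie above all others for CYP1A1, ALDH3A1, NQO1 and GCLM, and below all others for HAMP, ID3, ID1 and MT2A.

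Metallothionein genes fell together. On the list of metallothioneins and zinc export 6 of 9 tested members fell and 0 rose (median -0.60), and all 6 are metallothioneins that lie in 1 cluster on chromosome 16. MT2A had 258, 242 and 201 CPM at 500 µg/mL, against 362 to 508 CPM (median 401) at the lower doses, a change of -0.81 ± 0.103 (adjusted p = 3.64e-07, edgeR). MT1G had 59.3, 53.7 and 46.9 CPM at 500 and 81.9 to 124 CPM (median 92.7) at the lower doses, a change of -0.83 ± 0.0991. In both, no library at 500 reached the lowest of the 6.

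MT1F changed by -0.70 ± 0.0987, MT1E by -0.57 ± 0.0868 and MT1X by -0.44 ± 0.0918, with no overlap between the libraries at 500 and the 6 others. The call of MT1X ended without Samul-tang 500 replicate 3 (-0.36, adjusted p = 0.103, edgeR). MT1M, with counts of 15, 1 and 9 at 500, changed by -1.30 ± 0.351, and its call ended without Samul-tang 20 replicate 2 (-1.16, adjusted p = 0.134, edgeR), without Samul-tang 500 replicate 2 (-0.85) or 3 (-1.41), or without Samul-tang 100 replicate 1 or 2. MT1A, at 1.63 CPM over the 9 libraries, did not pass the test (-0.60 ± 0.206). The metallothionein genes are near-identical copies, so the estimated counts can divide reads between them, and the split between members is less certain than their sum. The zinc exporter SLC30A1, also a known MTF1 target, had 104, 84.3 and 103 CPM at 500 and 80.8 to 103 CPM at the lower doses (0.03 ± 0.0574), and SLC30A10, a manganese exporter, was at 0.05 ± 0.049, so that neither was called.

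CYP1A1 and ALDH3A1, both known as targets of the aryl hydrocarbon receptor, had the largest rises among called genes of at least 2 CPM. CYP1A1, which oxidises polycyclic aromatic compounds, had 78.2, 77.2 and 80.4 CPM at 500 µg/mL, against 13.8 to 29.1 CPM (median 22.8) at the lower doses. All 3 libraries at 500 lay far above the highest of the 6, and the log2 fold change was 1.91 ± 0.0723 (adjusted p = 1.31e-25, edgeR). CYP1A1 (ENSG00000140465) lies on chromosome 15 at 74719542 to 74725610, minus strand, in GENCODE 29. ALDH3A1, an aldehyde dehydrogenase, had 3.3, 5.06 and 3.93 CPM at 500 and 1.23 to 2.11 CPM (median 1.93) at the lower doses, a change of 1.19 ± 0.155.

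On the list of aryl hydrocarbon receptor targets 3 of 8 tested members rose and 1 fell (median 0.22). The third riser was the quinone reductase NQO1, which is also on the NRF2 list, and the member that fell was NFE2L2, which encodes NRF2 itself (-0.19 ± 0.0434). The call of NFE2L2 ended without Samul-tang 500 replicate 2 or 3. The receptor repressor AHRR, with counts of 27, 16 and 19 at 500, was at 0.76 ± 0.244 and did not pass the test (adjusted p = 0.078, edgeR). TIPARP (0.01 ± 0.0628), another known target, and SLC7A5 (-0.02 ± 0.0512), an amino acid transporter, were not called either. UGT1A1, which conjugates bilirubin, had 21, 22 and 21.3 CPM at 500, against 12.2 to 18 CPM (median 15.2) at the lower doses (0.49 ± 0.0688). UGT1A1 shares exons with the other UGT1A genes, so its reads may in part be theirs.

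NRF2 genes rose by small steps across the list. There were 14 rises and 1 fall among 21 tested members (median 0.18), and 13 rises without Samul-tang 20 replicate 2. AKR1B10, an aldo-keto reductase, had 56.8, 55.9 and 62 CPM at 500 µg/mL, against 32.8 to 43 CPM (median 38.1) at the lower doses, a change of 0.62 ± 0.0582 (adjusted p = 1.24e-10, edgeR). NQO1 had 528, 462 and 473 CPM at 500 and 319 to 400 CPM (median 366) at the lower doses, a change of 0.43 ± 0.0426. No library at 500 overlapped the lower doses in either gene.

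Genes that supply glutathione were among them. GCLM had 51.8, 44.2 and 50.5 CPM at 500 µg/mL and 24.9 to 38.6 CPM (median 36.1) at the lower doses, a change of 0.51 ± 0.0658, and 0.44 ± 0.0564 without Samul-tang 20 replicate 2, which held the 24.9. GCLC, the catalytic subunit of the same enzyme, rose by 0.19 ± 0.0377, and the cystine transporter SLC7A11 by 0.40 ± 0.059. AKR1C1 (0.27 ± 0.045) and AKR1C2 (0.34 ± 0.0501) rose as well, though both are so similar in sequence that reads may be divided between them. The bile conjugate pumps ABCC2 (0.18 ± 0.0348) and ABCC3 (0.25 ± 0.0571) were also higher, ABCC3 not without Samul-tang 500 replicate 2 or 3. The remaining risers were HMOX1, TXNRD1, SRXN1, GSR and PIR, at 0.16 to 0.23, each lost without at least 1 of the libraries at 500. SRXN1 was lost without any 1 of the libraries at 500 or 100, or without Samul-tang 20 replicate 1 or 3. HMOX1 and PIR were also lost without Samul-tang 100 replicate 2. The call of TXNRD1 also ended without Samul-tang 20 replicate 2 (0.19, adjusted p = 0.0694, edgeR).

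Of the NRF2-linked genes of the pentose phosphate pathway, PGD (0.01 ± 0.0353), TALDO1 (0.09 ± 0.0421) and TKT (0.04 ± 0.0587) were not called.

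**Figure D3:**
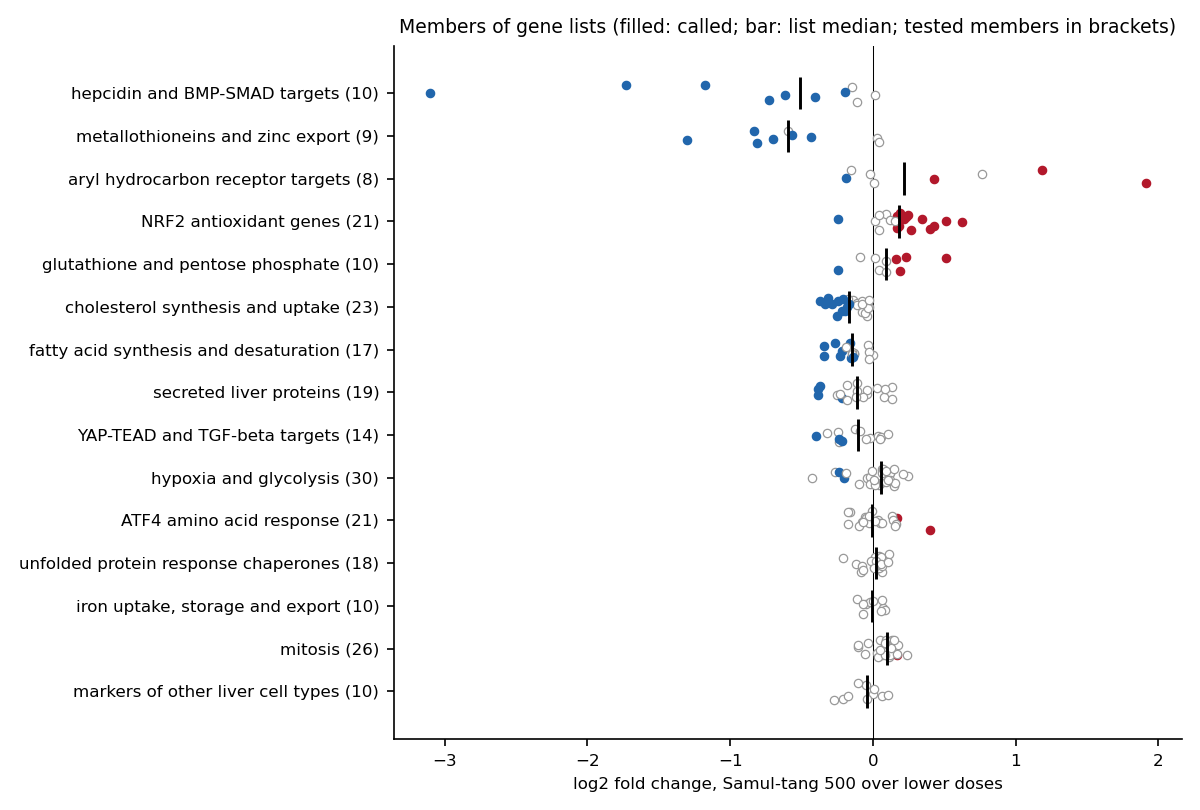
Log2 fold change at 500 µg/mL over the lower doses for each tested member of 15 gene lists, filled where the gene was called, with a bar at the list's median. Called members of the hepcidin and metallothionein lists all lie below 0, and those of the NRF2 list lie above 0 except for 1.

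Genes of cholesterol synthesis and uptake fell slightly. Of 23 tested members 11 fell and 0 rose (median -0.17), and 8 fell without Samul-tang 20 replicate 2. FDPS, farnesyl diphosphate synthase, averaged 204 ± 5.83 CPM at 500 µg/mL (SD, n = 3) and 241 ± 11.8 CPM at the lower doses (SD, n = 6), a change of -0.24 ± 0.0344 (adjusted p = 4.41e-06, edgeR). FDFT1, squalene synthase, changed by -0.20 ± 0.0334, and lanosterol synthase LSS by -0.29 ± 0.0542. HMGCS1, which makes HMG-CoA (-0.14 ± 0.05), and squalene epoxidase SQLE (-0.08 ± 0.0355) did not pass the test. FDPS, FDFT1 and LSS were called without each library in turn, but not in the fit of the 9 libraries alone. Nor were they called with the 6 lower-dose libraries as 1 group.

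Fatty acid genes moved alike in size. Of 17 tested members 9 fell and 0 rose (median -0.15), and 6 fell without Samul-tang 20 replicate 2. ACSS2, which makes acetyl-CoA from acetate, averaged 118 ± 1.04 CPM at 500 µg/mL (SD, n = 3) and 150 ± 12.4 CPM at the lower doses (SD, n = 6), a change of -0.35 ± 0.0343. The desaturase FADS2 changed by -0.34 ± 0.0412 and ACLY, which makes acetyl-CoA from citrate, by -0.13 ± 0.0271. All 3 were called without each library in turn, and ACSS2 and FADS2 also in the fit of the 9 libraries alone. With the 6 lower-dose libraries as 1 group, none of the 3 was called. Fatty acid synthase FASN was at -0.27 ± 0.0691, and its call ended without Samul-tang 20 replicate 2 (-0.18, adjusted p = 0.153, edgeR), which held 2640 CPM, while the 6 lower-dose libraries had a median of 1954 CPM. It also ended without Samul-tang 100 replicate 1 or Samul-tang 500 replicate 1 or 3.

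Other lists had few calls. Among secreted liver proteins 3 of 19 fell, of which the thyroxine carrier TTR, which is also on the list of liver identity markers (-0.38 ± 0.0533) was called without each library in turn, while AHSG and APOC3 were lost without Samul-tang 500 replicate 1 or 3, and APOC3 also without Samul-tang 20 replicate 2. G6PC1, the last enzyme of glucose release, fell by 0.45 on the log2 scale (SE 0.0964), alone among the 14 tested on the gluconeogenesis and FOXO list. Its call ended without Samul-tang 500 replicate 1. DEPP1, a FOXO target that is not on this list, was also called lower (-0.60). CCN2, a secreted matrix protein (-0.40 ± 0.0665), TGFBI (-0.22 ± 0.0359) and TGM2 fell among 14 YAP-TEAD and TGF-beta targets, the call of TGM2 ending without any of 4 libraries, Samul-tang 20 replicate 2 among them. On the list of drug metabolism genes linked to the receptor PXR, UGT1A1 and the efflux pump ABCB1 (0.21 ± 0.0368) rose and CYP3A7 (-0.31) fell, of 13 tested. The call of CYP3A7 ended without any 1 of the libraries at 500, or without Samul-tang 100 replicate 2 or 3.

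Of 30 hypoxia and glycolysis genes SLC2A1 and ALDOC fell, and 0 were called without Samul-tang 20 replicate 2. SLC7A11 and ASNS rose of 21 ATF4 genes, TOP2A of 26 mitosis genes, GINS1 of 26 DNA replication genes and BIRC3 of 13 NF-kB genes, with NFKBIA lower on that last list. HSPB1 and CFB were the single calls, both lower, of the heat shock and acute phase lists. The calls of ASNS, TOP2A, GINS1, BIRC3 and HSPB1 ended without Samul-tang 20 replicate 2, and that of TOP2A also with another method of library scaling. NFKBIA and CFB lost their calls without Samul-tang 500 replicate 1 or 3. No member was called on the lists of the unfolded protein response (18 tested), fatty acid oxidation and PPARA (17), bile acids (9), p53 (16), AP-1 (15), interferon (13), ribosome biogenesis (19) or lysosome and autophagy (14).

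Outside the lists, the genes that the naming rule picked among the 12 largest rises (at least 2 CPM and no overlap between the doses) were MBL2, a lectin of the complement system (0.49 ± 0.0584), CD109, a TGF-beta co-receptor (0.52 ± 0.0735), KRCC1 (0.52 ± 0.144), the non-coding RNA LINC02015 (0.50 ± 0.0824), the histone gene H2BC9 (0.50 ± 0.126) and ROR1, a Wnt receptor (0.46 ± 0.11). MBL2 had 50.9, 48.3 and 51.9 CPM at 500 µg/mL and 28.8 to 40 CPM (median 37.2) at the lower doses. Those it picked among the 12 largest falls were the semaphorin SEMA3B (-0.65 ± 0.068), the Notch ligand relative DLK1 (-0.56 ± 0.0734) and the synaptotagmin SYT7 (-0.55 ± 0.152). GRK4 (0.50 ± 0.14), a receptor kinase, and DEPP1 (-0.60 ± 0.119) changed as much, but their libraries at 500 overlapped those at the lower doses. SEMA3B had 55.4, 58.8 and 54.4 CPM at 500 and 76 to 122 CPM (median 83.3) at the lower doses, and DLK1 had 97, 103 and 83.1 CPM at 500 and 125 to 177 CPM (median 135) at the lower doses. The calls of KRCC1 (0.39, adjusted p = 0.197), H2BC9 (0.46, adjusted p = 0.0897) and SYT7 (-0.46, adjusted p = 0.169, edgeR) ended without Samul-tang 20 replicate 2, and that of ROR1 (0.37, adjusted p = 0.193) without Samul-tang 500 replicate 1. The calls of KRCC1, H2BC9 and SYT7 also ended without Samul-tang 500 replicate 1 or 2, among others.

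A set of 15 genes was called in each of 16 fits that kept both lower doses, the main fit among them. It held CYP1A1, NQO1, AKR1B10, AKR1C2, ID1, ID2, ID3, MT1F, MT1G and MT2A, and 5 genes that fall outside the rule for naming and were picked out after their values were seen. These were the secreted phosphoprotein SPP1 (0.37), the Ras relative MRAS (0.43), the actin-linked adaptor SORBS2 (0.30), the progestin receptor PAQR8 (-0.45) and the Wnt inhibitor DKK1 (-0.37). HAMP and ALDH3A1 were called in every one of these fits but DESeq2's, which gave them no adjusted p.

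**Figure D4:**
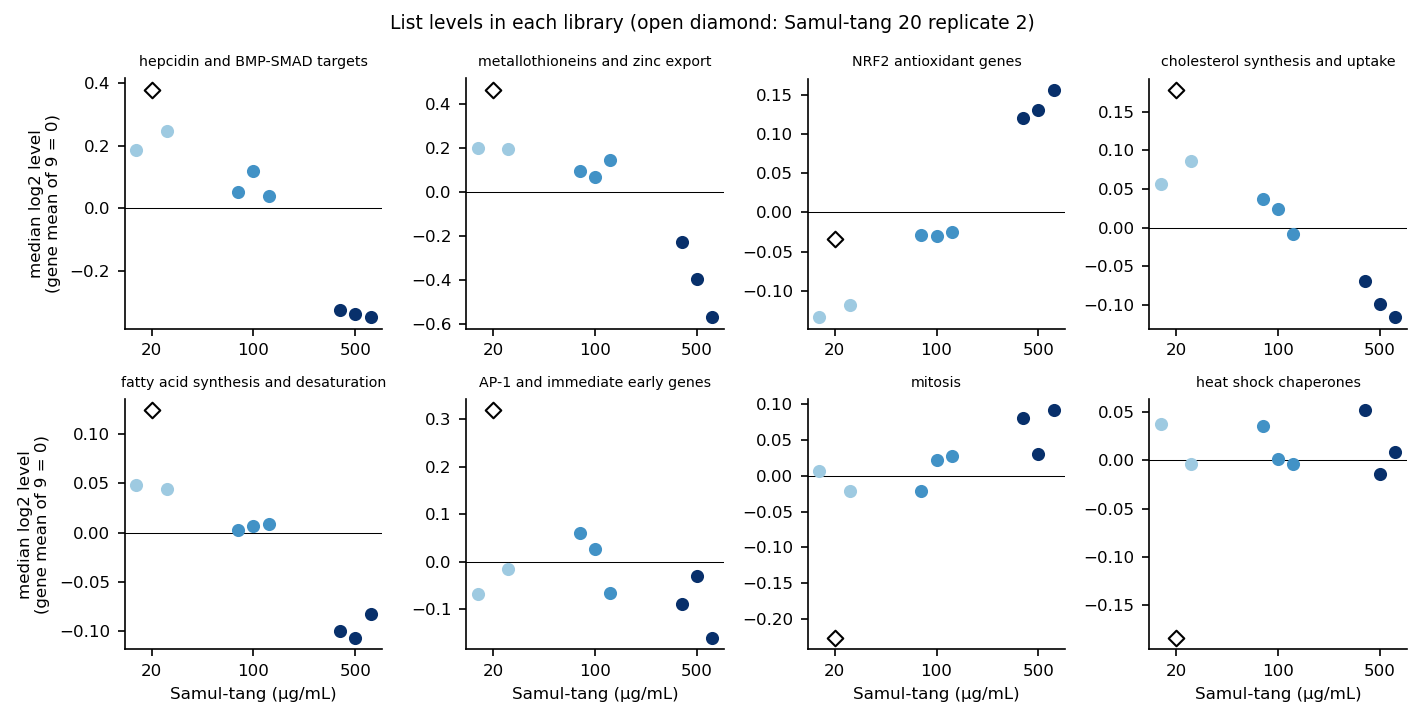
Median log2 level of the members of 8 lists in each Samul-tang library at 20, 100 and 500 µg/mL, with each gene's mean over the 9 libraries set to 0 and Samul-tang 20 replicate 2 as an open diamond. The libraries at 500 lie below all 6 others for the BMP-SMAD, metallothionein, cholesterol and fatty acid lists and above them for the NRF2 list, and the open diamond lies highest for 5 lists and lowest for mitosis and heat shock.

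The level of the BMP-SMAD list, relative to its mean over the 9 libraries, was -0.32, -0.34 and -0.35 on the log2 scale at 500 µg/mL, against 0.04 to 0.38 at the lower doses. The metallothionein list was at -0.23, -0.40 and -0.57 at 500, against 0.07 to 0.46 at the lower doses, and varied more among the libraries at 500 than the BMP-SMAD list did. Samul-tang 20 replicate 2 was the highest library for both lists, at 0.38 and 0.46. It was also highest for cholesterol synthesis (0.18), fatty acid synthesis (0.12) and AP-1 genes (0.32), and lowest for mitosis (-0.23) and heat shock (-0.18). Whether the state of this library sets part of the fall in these lists was not tested beyond leaving it out.

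For the genes given here, the mean levels at 100 µg/mL lay between those at 20 and 500 µg/mL. From vehicle to 20 µg/mL, the means of ID3, NQO1 and MT2A moved against the direction taken at 500. CYP1A1 averaged 11.8 ± 1.03 CPM in vehicle and 15.2 ± 2.13, 28.4 ± 0.632 and 78.6 ± 1.64 CPM at 20, 100 and 500 µg/mL (SD, n = 3 each). HAMP averaged 6.48 ± 1.04 CPM in vehicle and 5.03 ± 1.43, 2.58 ± 0.34 and 0.413 ± 0.0476 CPM at the same doses. ID3 was at 13.2 ± 1.34 CPM in vehicle and 15.9 ± 3.19, 11.8 ± 0.446 and 4.18 ± 0.84 CPM. Its top dose lay far below vehicle, and its mean at 100 µg/mL slightly below. NQO1, at 382 ± 18.4 CPM in vehicle, was at 338 ± 16.6, 389 ± 10.4 and 488 ± 35.2 CPM. MT2A, at 373 ± 41.5 CPM in vehicle, was at 445 ± 55.1, 379 ± 18.3 and 234 ± 29.6 CPM.

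Between 100 and 20 µg/mL 34 genes were called (0.21%), 8 higher (0.0495%) and 26 lower (0.161%) at 100. CYP1A1 (0.89 ± 0.094) and UGT1A1 (0.36 ± 0.0817) were higher, as were DUS4L (0.39 ± 0.0916), a tRNA-modifying enzyme, and DCDC2 (0.33 ± 0.0681), a microtubule-binding protein. HAMP (-0.99 ± 0.165), DEPP1 (-0.69 ± 0.127), a FOXO target, G6PC1 (-0.53 ± 0.105) and YPEL3 (-0.49 ± 0.0879) were the most lowered by the naming rule. Without Samul-tang 20 replicate 2 only CYP1A1 was called (1.02), and HAMP was at -0.75 (adjusted p = 0.271, edgeR). HAMP also lost its call without Samul-tang 100 replicate 3 (-0.88). Without Samul-tang 20 replicate 1 the count was 609, and without replicate 3 it was 529.

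More genes differed between the lower doses and vehicle than between 500 µg/mL and the lower doses. There were 2994 calls (18.5%), 1513 higher (9.36%) and 1481 lower (9.16%). The sample codes of both formulas carry a set number that the vehicle codes do not, so a difference between sets and an effect of the lower doses cannot be told apart. HSPA1A, a heat shock protein (0.98 ± 0.1), the transcription factors CEBPB (0.96 ± 0.108) and HES4 (1.09 ± 0.19) and the non-coding RNA TRIM8-DT (1.17 ± 0.186) were the most raised by the naming rule. FAM86B1 (-0.68 ± 0.133), BSCL2 (-0.66 ± 0.174), the glutathione transferase GSTA1 (-0.63 ± 0.0718) and CCDC144NL (-0.61 ± 0.0959) were the most lowered by the same rule. FAM86B1 has near-identical copies, as does HSPA1A, and the call of BSCL2 ended without vehicle replicate 1 (-0.40, adjusted p = 0.194, edgeR). None of these 8 was called between 500 and the lower doses. CYP1A1 (0.82 ± 0.0879) and HAMP (-0.84 ± 0.13) already differed from vehicle at the lower doses, in the direction they took at 500.

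Sagunja-tang, in the same set, offers the closest comparison. Its own libraries at 500 µg/mL differed from its lower doses in 699 genes (4.32%). Both formulas called 129 genes, 32% of the calls of Samul-tang and 18.5% of those of Sagunja-tang, with 128 in the same direction (57 higher and 71 lower) and 1 opposite. Of the 403 genes of Samul-tang, 349 (86.6%) had the same sign in Sagunja-tang. The share with the same sign over all genes tested was not computed, so this value has no background beside it. The formulas share no library in these comparisons.

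The difference between the changes of both formulas was tested as a contrast of the same model, and 22 genes were called (0.136%), 9 higher (0.0557%) and 13 lower (0.0804%) with Samul-tang. HAMP fell further with Samul-tang, by a difference of -2.50 ± 0.289 (adjusted p = 1.61e-07, edgeR). In Sagunja-tang it averaged 3.24 ± 0.627 CPM at 500 (SD, n = 3) and 4.95 ± 0.562 CPM at the lower doses (SD, n = 6). ID3 had 15.2, 17.6 and 16.7 CPM at 500 µg/mL of Sagunja-tang and 14.1 to 16.3 CPM at its lower doses, and differed between the formulas by -1.83 ± 0.148. ID1 differed by -1.17 ± 0.112, ID2 by -0.66 ± 0.0961 and SMAD7 by -0.52 ± 0.106.

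The differences for HAMP, ID1, ID2 and ID3 were called without each of the 18 libraries in turn. That for SMAD7 ended without Samul-tang 500 replicate 1 or 3 or Sagunja-tang 500 replicate 2 or 3, at -0.52 to -0.47. SEMA3B differed by -0.47 ± 0.0932, with its call lost without Samul-tang 500 replicate 1 or 3 or Sagunja-tang 500 replicate 2, and SNAI1, a repressor of epithelial genes, by -0.80 ± 0.163. KLHL24 (0.65 ± 0.146), GABPB1-AS1 (0.39 ± 0.0825), APOL6 (0.36 ± 0.0777) and CLMN (0.29 ± 0.0571) differed the other way, with none of the 4 called within Samul-tang. These 4 calls and that of SNAI1 each ended without any 1 of 3 to 11 libraries, Samul-tang 500 replicate 1 in every case.

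For CYP1A1 and for all tested members of the metallothionein and NRF2 lists, no difference between the formulas passed the test. CYP1A1 rose by 1.91 ± 0.0723 with Samul-tang and 2.12 ± 0.0752 with Sagunja-tang, a difference of -0.21 ± 0.108 (adjusted p = 0.508, edgeR). MT1G changed by -0.83 ± 0.0991 with Samul-tang and -0.82 ± 0.0989 with Sagunja-tang, a difference of -0.02 ± 0.137, and MT2A by -0.81 ± 0.103 with Samul-tang and -0.62 ± 0.101 with Sagunja-tang, a difference of -0.19 ± 0.14. NQO1 differed by -0.15 ± 0.061, GCLM by 0.08 ± 0.0931 and AKR1B10 by -0.36 ± 0.0821 (adjusted p = 0.0509), the last near the threshold. On the metallothionein list 6 of 9 members fell with Samul-tang and 7 with Sagunja-tang, and on the BMP-SMAD list 7 of 10 fell with Samul-tang and 2 with Sagunja-tang. On the NRF2 list 14 of 21 were called higher with Samul-tang and 16 with Sagunja-tang. On the ribosome biogenesis list 0 of 19 were called higher with Samul-tang and 10 with Sagunja-tang, with medians of 0.04 and 0.18. With Samul-tang, 16 of those 19 had positive log2 fold changes. The counts on these lists come from separate tests within each formula, which called 2.49% and 4.32% of all genes. Such counts are no test of a difference between the formulas.

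**Figure D5:**
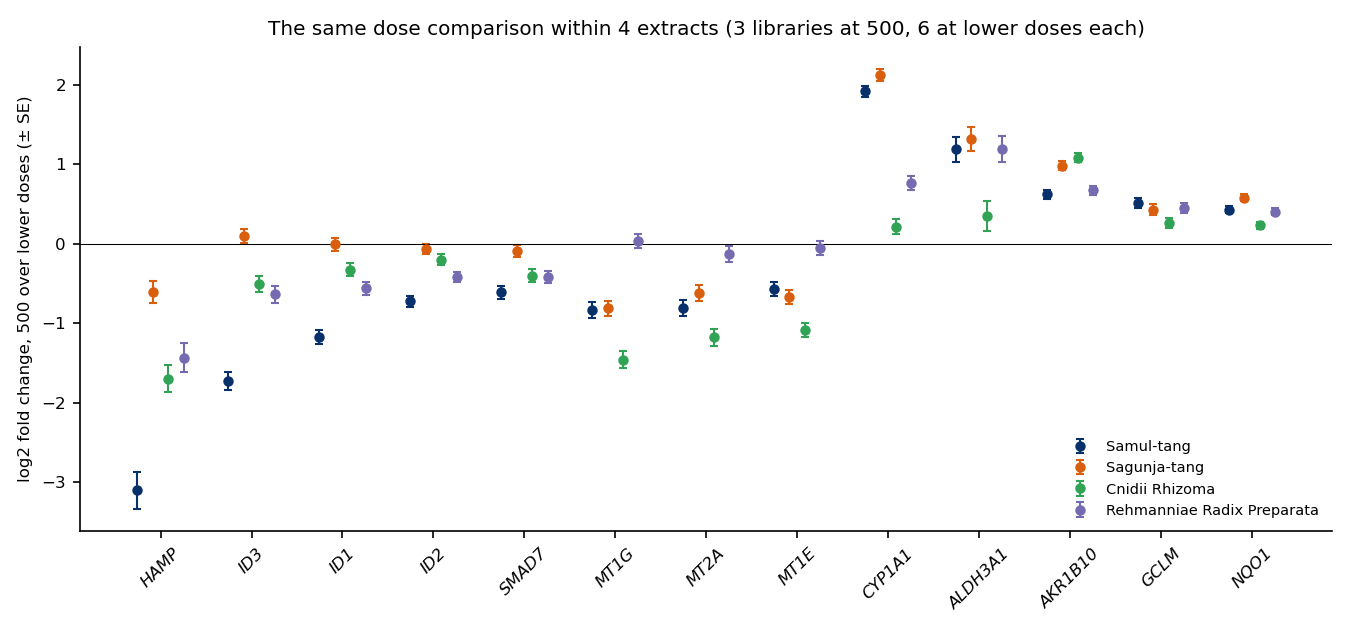
Log2 fold change (± SE) of 13 genes at 500 µg/mL over the lower doses within Samul-tang, Sagunja-tang, Cnidii Rhizoma and Rehmanniae Radix Preparata. HAMP, ID3 and ID1 are lowest with Samul-tang, at -3.10, -1.73 and -1.18. The metallothioneins are lowest with Cnidii Rhizoma, and CYP1A1 is highest with both formulas.

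The single herbs were sequenced under another set number, and each was compared with its own lower doses. The change differed from that of Cnidii Rhizoma in 46 genes (0.285%), 25 higher (0.155%) and 21 lower (0.13%) with Samul-tang. CYP1A1 rose by 1.91 ± 0.0723 with Samul-tang and was at 0.21 ± 0.096 with Cnidii Rhizoma, a difference of 1.70 ± 0.121 (adjusted p = 3.47e-14, edgeR). ID3 differed by -1.22 ± 0.156, ID1 by -0.85 ± 0.114 and ID2 by -0.53 ± 0.0966, the last not called without Samul-tang 500 replicate 3 (-0.45). HAMP changed by -3.10 ± 0.233 with Samul-tang and -1.70 ± 0.171 with Cnidii Rhizoma, a difference of -1.40 ± 0.326 (adjusted p = 0.0371) lost without any 1 of 7 libraries. These were Samul-tang 500 replicates 1 and 3, Samul-tang 100 replicates 1 and 2, Samul-tang 20 replicate 2 and Cnidii Rhizoma 500 and 20 replicate 1, with differences of -1.51 to -1.19. BMF, a pro-apoptotic BCL2 relative, differed by 0.63 ± 0.0947, KLHL24 by 0.67 ± 0.149 and the lipoprotein component APOC3 by -0.68 ± 0.126. Of these 3 only BMF was called without each library in turn.

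Metallothioneins fell less with Samul-tang than with Cnidii Rhizoma where the test was passed. MT1G changed by -0.83 ± 0.0991 with Samul-tang and -1.46 ± 0.107 with Cnidii Rhizoma, a difference of 0.63 ± 0.142 (adjusted p = 0.0302, edgeR), and MT1E differed by 0.52 ± 0.122. The MT1E call ended without any 1 of 10 libraries, Samul-tang 500 replicate 1 (0.40) and all of Samul-tang 100 among them. The MT1G call ended without Samul-tang 500 replicate 1, Samul-tang 100 replicate 2, Cnidii Rhizoma 500 replicate 1 or 3 or Cnidii Rhizoma 100 replicate 2, at 0.48 to 0.66. AKR1B10 rose by 0.62 ± 0.0582 with Samul-tang and 1.08 ± 0.0567 with Cnidii Rhizoma, a difference of -0.46 ± 0.0825. ACSS2 fell less with Samul-tang, by a difference of 0.23 ± 0.0482 that was lost without Samul-tang 500 replicate 1 or 3 or Cnidii Rhizoma 500 replicate 1.

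Against Rehmanniae Radix Preparata the change differed in 13 genes (0.0804%), 3 higher (0.0186%) and 10 lower (0.0619%) with Samul-tang. CYP1A1 rose by 1.91 ± 0.0723 with Samul-tang and 0.76 ± 0.0874 with the herb, a difference of 1.15 ± 0.116 (adjusted p = 6.26e-09, edgeR). HAMP changed by -3.10 ± 0.233 with Samul-tang and -1.43 ± 0.18 with the herb, a difference of -1.67 ± 0.329 (adjusted p = 0.015), which was lost without Samul-tang 500 replicate 1 (-1.78, adjusted p = 0.0543) or 3 (-1.64, adjusted p = 0.0921), or Rehmanniae Radix Preparata 500 replicate 2 (-1.53, adjusted p = 0.0899). ID3 differed by -1.09 ± 0.161 and ID1 by -0.62 ± 0.115, the last not called without Rehmanniae Radix Preparata 500 replicate 3 (-0.56).

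MT1G changed by -0.83 ± 0.0991 with Samul-tang and was at 0.03 ± 0.0939 with Rehmanniae Radix Preparata, a difference of -0.87 ± 0.135 (adjusted p = 0.000362, edgeR) that was called without each library in turn. MT2A differed by -0.68 ± 0.14 and FADS2 by -0.30 ± 0.0575. MTTP, which loads lipid onto lipoproteins (0.33 ± 0.0612), and DCDC2 (0.41 ± 0.0835) were higher with Samul-tang. The calls of MT2A, FADS2, MTTP and DCDC2 each ended without Rehmanniae Radix Preparata 500 replicate 3, those of FADS2, MTTP and DCDC2 without Samul-tang 500 replicate 1, and those of MT2A and DCDC2 without Samul-tang 500 replicate 3, among others. For ALDH3A1 (0.00 ± 0.29), NQO1 (0.03 ± 0.0611) and AKR1B10 (-0.05 ± 0.083) the difference from this herb did not pass the test.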

How the data were processed

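Messenger RNA of HepG2 cells was sequenced in 60 libraries, per the labels with a directional kit and paired reads of 100 bases. The table as deposited by the authors holds estimated counts (RSEM's expected counts) for 60675 Ensembl genes, made per the submitters' processing notes with RSEM 1.3.3 and STAR 2.7.3a on GRCh38 (hg38). Those notes also name Trim Galore 0.6.5 and FastQC 0.11.9, while the annotation and strand setting are not given in the sources used here. The 210 columns that match none of these samples were not used. RSEM divides reads between similar genes, which can shift counts within families. Symbols came from a reference list of gene names and, where that gave none, from GENCODE release 29, which holds 57055 of the IDs.

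Here the expected counts were rounded to whole numbers and fitted with edgeR 4.0.16 (R 4.3.3) over 57 libraries in 19 groups of 3. Those of Cinnamomi Cortex and Astragali Radix were among them. The 3 Palmul-tang libraries, 1 at each dose, were left out. After filterByExpr 16167 genes were tested with TMM scaling and the quasi-likelihood test. p-values were adjusted by Benjamini-Hochberg over all genes, and a gene was called at an adjusted p under 0.05. The SE is the log2 fold change divided by the square root of its F statistic. Totals were 16484524 to 34412226 counts per library, and CPM were computed on TMM-scaled totals. The exception was the CPM of liver and other cell markers given beside depth, single and summed, which used unscaled totals.

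The 12 largest rises and 12 largest falls among called genes with a symbol, at least 2 CPM on average and no overlap between the libraries compared were named, with up to 4 members of each of 30 gene lists and 4 genes per direction in the other comparisons (no overlap was asked of the differences between extracts). Further list members are named where the text groups them. Comparison, lists and rules were chosen with earlier results of these data known. Alternatives were RLE scaling, DESeq2 1.42.0, no filter, a replicate block, other sets of libraries in the fit and leaving out each replicate. Scripts were tested on simulated data. Some genes counted in the totals and lists are not reported here by name. Figures used matplotlib 3.10.9.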

Additional observations from a re-analysis of the deposited data

Results flagged for a closer look

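In Samul-tang 20 replicate 2, 15 of the 57 genes named for the dose comparison lay far from the other 5 lower-dose libraries by Dixon's test, and no other library was picked out in this way. Chance picks out about 1 in 20 such groups of values. But the 57 genes were chosen with this library in the comparison and may move together, so 15 of 57 is no test against that share. Among the 15 genes, CPM in this library were high for ID1 (115), MT1G (124), MT1E (283), SEMA3B (122), DLK1 (177), SLC2A1 (331), LSS (350) and ACLY (616). HSPB1 was high as well (77.8). They were low for GCLM (24.9), SLC7A11 (35.3), KRCC1 (1.73), BIRC3 (5.22) and TOP2A (384). Without this library the log2 fold changes were -1.09 for ID1, -0.74 for MT1G, -0.50 for MT1E, -0.56 for SEMA3B, -0.49 for DLK1, 0.35 for SLC7A11, 0.44 for GCLM, -0.22 for LSS and -0.12 for ACLY, each still called, and the calls of SLC2A1, HSPB1, KRCC1, BIRC3 and TOP2A ended.

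The change at 500 µg/mL differed between Samul-tang and Sagunja-tang in 22 genes by the test of the difference. It was lower with Samul-tang for HAMP (-2.50), ID3 (-1.83), ID1 (-1.17), ID2 (-0.66), SMAD7 (-0.52) and SEMA3B (-0.47) on the log2 scale.

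From the change with Cnidii Rhizoma it differed in 46 genes. It was higher with Samul-tang for CYP1A1 (1.70), MT1G (0.63), MT1E (0.52) and ACSS2 (0.23), and lower for HAMP (-1.40), ID3 (-1.22), ID1 (-0.85), APOC3 (-0.68), ID2 (-0.53) and AKR1B10 (-0.46). From the change with Rehmanniae Radix Preparata it differed in 13 genes, higher for CYP1A1 (1.15) and lower for HAMP (-1.67), ID3 (-1.09), MT1G (-0.87), MT2A (-0.68), ID1 (-0.62) and FADS2 (-0.30).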

How the results depend on the processing

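None of the 57 named calls, nor of the named calls in the other comparisons, changed sign under an alternative run. The 403 calls of Samul-tang 500 against its lower doses became 653 with a replicate block, 714 with no filter on low counts (295 of the 403 among them), 48 with only the 9 Samul-tang libraries in the fit, 19 with the 6 lower-dose libraries as 1 group, 35 against 100 alone and 1597 against 20 alone. Leaving out 1 library gave 138 to 973. DESeq2 gave 569 and RLE scaling 398.

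The replicate block moved the other counts to 116 between 100 and 20, and to 40, 164 and 39 for the differences from Sagunja-tang, Cnidii Rhizoma and Rehmanniae Radix Preparata; in the same order, no filter gave 267, 187, 431 and 407, the compared groups alone 1, 7, 4 and 2, and DESeq2 114, 55, 172 and 73. Leaving out 1 library gave 1 to 609, 7 to 70, 9 to 320 and 5 to 70. The 2994 calls of the lower doses against vehicle became 981 with only those groups in the fit and 1545 to 3253 without 1 library. The cause of these shifts was not tested.

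Same-numbered libraries did not deviate together throughout. The correlation of deviations was -0.092 to 0.182 over 9 pairs with the same number, 2 of them over 0.1, and -0.134 to 0.061 between different numbers. Between 500 and 20 µg/mL the same-number pairs were at 0.054, 0.182 and 0.102, above the different-number pairs (-0.134 to 0.041). In the other pairs of doses, same-number pairs were at -0.092 to 0.03. The samples share only a number, and the block ended none of the 57 named calls.

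Of 57 named genes, 56 were called with RLE scaling, 49 with no filter, 25 with only the 9 libraries in the fit, 12 with the lower doses as 1 group, 23 against 100 alone and 57 against 20 alone. DESeq2 called all 51 to which it gave an adjusted p. Of 90 list medians recomputed, 89 moved by less than the spread between replicates. The median of the liver identity markers moved by more, to -0.08 without Samul-tang 20 replicate 2, against -0.06.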
